A study of Mus musculus with 1600 samples.

Results

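Hoxd13-high cells and Hoxd13-low cells of the mouse hind limb at E12.5 (the day of gestation) were compared across all other genes. Of 160 cells labelled E12.5, 158 had at least 1000 detected genes, and 130 of these had at least 50 CPM (counts scaled to a cell total of 1000000) of Prrx1, a transcription factor gene of limb mesenchyme. Hoxd13-high cells were the 78 with at least 100 CPM of Hoxd13, Hoxd13-low cells were the 19 with under 5 CPM, and the 33 cells between these limits were kept apart. The series holds 1600 samples, of which 480 cells had counts here. Cells of E15.5 and E10.5, split at the same limits, are given beside them further below. All groups are labelled with 1 origin, hind limbs of C57BL/6 embryos carrying a Scx-GFP transgene (Scx is a marker gene of tendon progenitors), and no other allele or agent is named. Limbs of siblings were combined and digested with collagenase and trypsin, and single cells were taken up by a microfluidic Fluidigm C1 chip. The labels name no dissection of the limb into segments, so the place of a cell in the limb is not known. The stage is therefore 1 sample: cells are not replicates, no test could be made, and intervals (exact Poisson, 95%) cover counting error only.

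As background, the limb skeleton forms as an upper segment, a middle segment and the autopod, which becomes the hand or foot. Genes at the 5′ end of the HoxD cluster, with Hoxd13 at the end, are expressed in the late distal limb bud under enhancers that lie outside the cluster, and Hoxd13 and Hoxa13 together are required to form digits. Meis and Shox2 transcription factors are known for more proximal limb segments, while Msx1, Lhx2, Lhx9 and the BMP, FGF and retinoic acid pathways pattern the distal bud and the tissue between the digits.

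The Hoxd13 and Prrx1 values chose the cells and are given as a description. Hoxd13 ranged from 105 to 2678 CPM in Hoxd13-high cells, with a median of 565.6 CPM, and from 0 to 4.78 CPM in Hoxd13-low cells, with a median of 0. The 3 Hoxd13-high cells nearest to the limit had 105, 109 and 119 CPM, and the 3 highest cells under it had 84.0, 91.1 and 93.3 CPM. At the lower limit, the highest Hoxd13-low cells had 3.63, 4.10 and 4.78 CPM, and the next cells above had 5.12, 5.33 and 6.89 CPM. No Hoxd13 count was found in 13 of the 19 Hoxd13-low cells. Prrx1 had a median of 704 CPM in Hoxd13-high cells and 580 CPM in Hoxd13-low cells. Of the 28 cells left out for under 50 CPM of Prrx1, 11 had at least 100 CPM of Hoxd13.

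Depth differed between the groups. Hoxd13-high cells held 30497 to 739651 counts (median 291060, with a median of 5078.5 detected genes), and Hoxd13-low cells 2681 to 837376 counts (median 165619, with a median of 3905 detected genes). In a cell of under 200000 counts a single Hoxd13 count already exceeds 5 CPM, and 20 of 78 Hoxd13-high cells and 10 of 19 Hoxd13-low cells were that shallow, so some Hoxd13-low cells may hold Hoxd13 below detection. The Prrx1 minimum likewise rests on very few counts in shallow cells. Hoxd13-low cells of 38899 and 52594 counts had 51.4 and 57.0 CPM of Prrx1, and in the cell of 2681 counts a single count exceeds the minimum. The cells came from 4 library pools of 40 cells each, numbered 4 to 7, a technical split given by an index in the labels. Pools 4, 5, 6 and 7 held 19, 18, 19 and 22 Hoxd13-high cells and 4, 5, 6 and 4 Hoxd13-low cells. Summed over cells, Hoxd13-high cells had 26283279 counts and Hoxd13-low cells 4173871 counts. The deepest Hoxd13-low cell, in pool 7, gave 20.1% of the counts of its group and was among the cells that Scrublet called doublets, and results that rest on it are given with and without it.

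**Figure D1:**
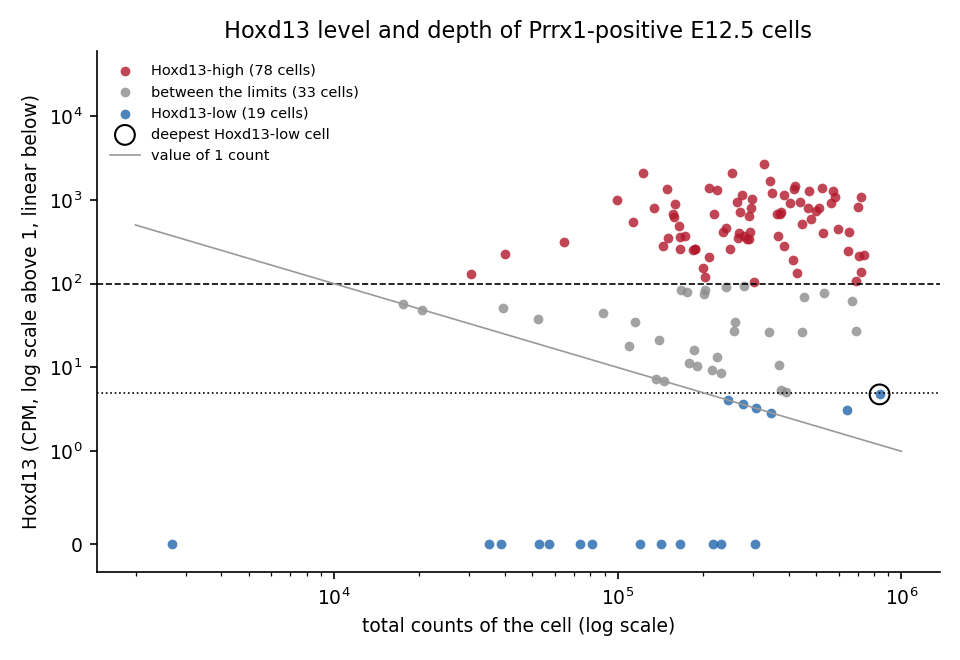
Hoxd13 level (CPM, log scale above 1) against total counts (log scale) for the 130 Prrx1-positive E12.5 cells, with the limits at 100 CPM (dashed) and 5 CPM (dotted) and the value of 1 count (grey line). Most Hoxd13-low cells lie at 0, and the deepest one (circled) holds 837376 counts with Hoxd13 at 4.78 CPM.

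Markers of muscle, endothelium, epithelium, blood and nerve (89 genes) together took at most 0.506% of the counts of a Hoxd13-high cell and 1.12% of those of a Hoxd13-low cell, with medians of 0.0213% and 0.0179%. The single highest value came from a Hoxd13-low cell of pool 5 with 38899 counts, in which macrophage and mast cell markers summed to 11029 CPM, led by C1qb (a complement gene of macrophages) with 121 counts. Its Prrx1 level, 51.4 CPM, was just above the minimum. Summed muscle markers of differentiated fibres ranged from 0 to 3765 CPM over Hoxd13-high cells and from 0 to 932 CPM over Hoxd13-low cells. The erythroid markers were at 0 in all Hoxd13-low cells and in all but 1 of the Hoxd13-high cells.

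Genes were compared by the log2 ratio of summed CPM, Hoxd13-high over Hoxd13-low, with 5 added to each CPM, among 10204 genes read in 10 or more of the 97 cells. A gene is called higher or lower in Hoxd13-high cells when this ratio is at least 1 in size and has the same sign within each of the 4 pools. By this rule 1199 genes (11.8%) were higher and 127 genes (1.24%) were lower. The median log2 ratio over all of them was 0.09. The excess of higher genes was smaller among broadly detected genes: of 6592 with counts in 30 cells or more, 8.92% were higher and 1.58% lower, and of 2851 with counts in 60 cells or more, 4.67% were higher and 1.47% lower. Counts were 0 over all 19 Hoxd13-low cells for 143 of the genes, and for 0 genes over the 78 Hoxd13-high cells. When every cell was thinned to 50000 counts, 1147 genes were higher and 98 lower, which shared 713 of the 1199 and 60 of the 127. Without the called doublets (6 Hoxd13-high and 3 Hoxd13-low cells), 15.1% of genes were higher and 1.40% lower, sharing 973 of the 1199 and 84 of the 127. At E10.5 the surplus lay with the larger group as well: Hoxd13-high cells were the fewer (14 against 69), and 201 genes (2.19%) were higher and 1450 (15.8%) lower. At E15.5 (48 against 70) the direction of the surplus changed with the filter. There 137 genes were higher and 196 lower, but 107 and 98 among genes with counts in 30 cells or more. The part of group size in these counts was not tested.

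Of the 3 other HoxD genes compared, Hoxd12 and Hoxd10 were higher in Hoxd13-high cells and 0 were lower, beside 11.8% and 1.24% of all genes. Hoxd12, the gene next to Hoxd13 in the HoxD cluster (chromosome 2, 74675013 to 74677705, plus strand, GRCm38), had 101, 135, 148 and 113 CPM in the Hoxd13-high cells of pools 4 to 7, against 0, 1.32, 1.92 and 1.62 CPM in their Hoxd13-low cells. The pools did not overlap between the groups. Over single cells the lowest, median and highest Hoxd12 levels were 0, 39.5 and 919 CPM in Hoxd13-high cells and 0, 0 and 7.04 CPM in Hoxd13-low cells, so Hoxd13-high cells without a Hoxd12 count overlapped with the Hoxd13-low group. Summed over cells, Hoxd12 had 122 CPM (118 to 126) against 1.44 CPM (0.528 to 3.13). The log2 ratio was 4.30, with 4.15 to 4.47 within pools. Cells between the limits had 7.49 CPM of Hoxd12. After thinning to 50000 counts, 48 of 76 Hoxd13-high cells and 2 of 16 Hoxd13-low cells had a Hoxd12 count (unthinned, 58 of 78 and 6 of 19).

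Hoxd10, further along the same cluster, reached 87.1 CPM (83.6 to 90.7) against 23.5 CPM (19.1 to 28.6), and its log2 ratio was 1.69. Pool 6 held the exception, with a ratio of 0.36, and without that pool the ratio was 3.51. Hoxd11, with a count in too few cells to be compared, had 6.92 CPM in Hoxd13-high cells and 0 counts in Hoxd13-low cells. It was at least 9.63-fold higher against 3 counts over the group (0.719 CPM), while the interval of 0 counts there reaches 0.884 CPM. Its 182 counts came from 8 of 78 Hoxd13-high cells, 50% of them from 1 cell, with none in pool 5, and without the highest cells its log2 ratio was 0.41. Hoxd9 stood at 13 and 15.8 CPM and was not called (log2 ratio -0.21, and 1.30 without pool 7).

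Hoxa13, which marks the autopod together with Hoxd13, was almost unread. It had 7 counts in 2 of the 78 Hoxd13-high cells (0.266 CPM (0.107 to 0.549)) and 0 counts in the 19 Hoxd13-low cells. The interval there reaches 0.884 CPM, so a difference was not detectable at this depth. The label autopod therefore rests on Hoxd13 alone, and the cells are named by their Hoxd13 level. Of 5 HoxA genes compared, 0 were called. Hoxa11, a gene of the middle limb segment, had 24.3 CPM in Hoxd13-high cells and 43.1 CPM in Hoxd13-low cells, with within-pool ratios from -3.10 to 0.30. Hoxa10 stood at 191 and 286 CPM (log2 ratio -0.57), below 0 in each pool but short of the limit.

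The 4 HoxC genes compared had a median log2 ratio of -2.14, with 0 called. Hoxc8 had 5.94 CPM in Hoxd13-high cells and 58.7 CPM in Hoxd13-low cells (log2 ratio -2.54), and pool 5 went the other way with 0.18. In the E15.5 cells, split at the same limits, Hoxc8 was called lower, with 1.76 CPM in Hoxd13-high cells and 36.4 CPM in Hoxd13-low cells.

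Aldh1a2 was first by ratio among the 184 higher genes that met the naming rule, with 5 CPM added. With 1 CPM added its ratio was 5.45, and 7 of the other named genes had larger ones, up to 5.82 for Atpaf1. Aldh1a2 encodes the enzyme that makes retinoic acid from retinaldehyde, and is known from the tissue between the digits. Its levels were 12, 268, 222 and 318 CPM in the Hoxd13-high cells of pools 4 to 7, against 0, 13.2, 0 and 3.24 CPM in their Hoxd13-low cells. Pool 4 was low in both groups, and its Hoxd13-high value lay below the pool 5 value of Hoxd13-low cells. Single Hoxd13-high cells had 0, 3.48 and 4533 CPM as lowest, median and highest value, and Hoxd13-low cells 0, 0 and 54.3 CPM. The groups overlapped among cells with few or no counts, and the highest values were all in Hoxd13-high cells. The summed level was 210.1 CPM (205 to 216) against 3.83 CPM (2.19 to 6.23) (log2 ratio 4.61). Rdh10, which encodes the retinol dehydrogenase of the preceding step, had 55.6 CPM in Hoxd13-high cells against 0.719 CPM (3 counts) in Hoxd13-low cells, a ratio of 77.4 (95% interval 26.4 to 376). Cyp26b1, whose enzyme degrades retinoic acid, had 219 and 97.3 CPM but was not called, because pool 5 ran opposite (log2 ratio 1.13, and 3.81 without pool 5). Of 14 retinoic acid pathway genes compared, Aldh1a2 and Rdh10 were higher, 0 were lower, and the median was 0.03, a count near the 11.8% of all genes that were higher. Without the deepest Hoxd13-low cell Stra6 and Crabp1 were lower as well.

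**Figure D2:**
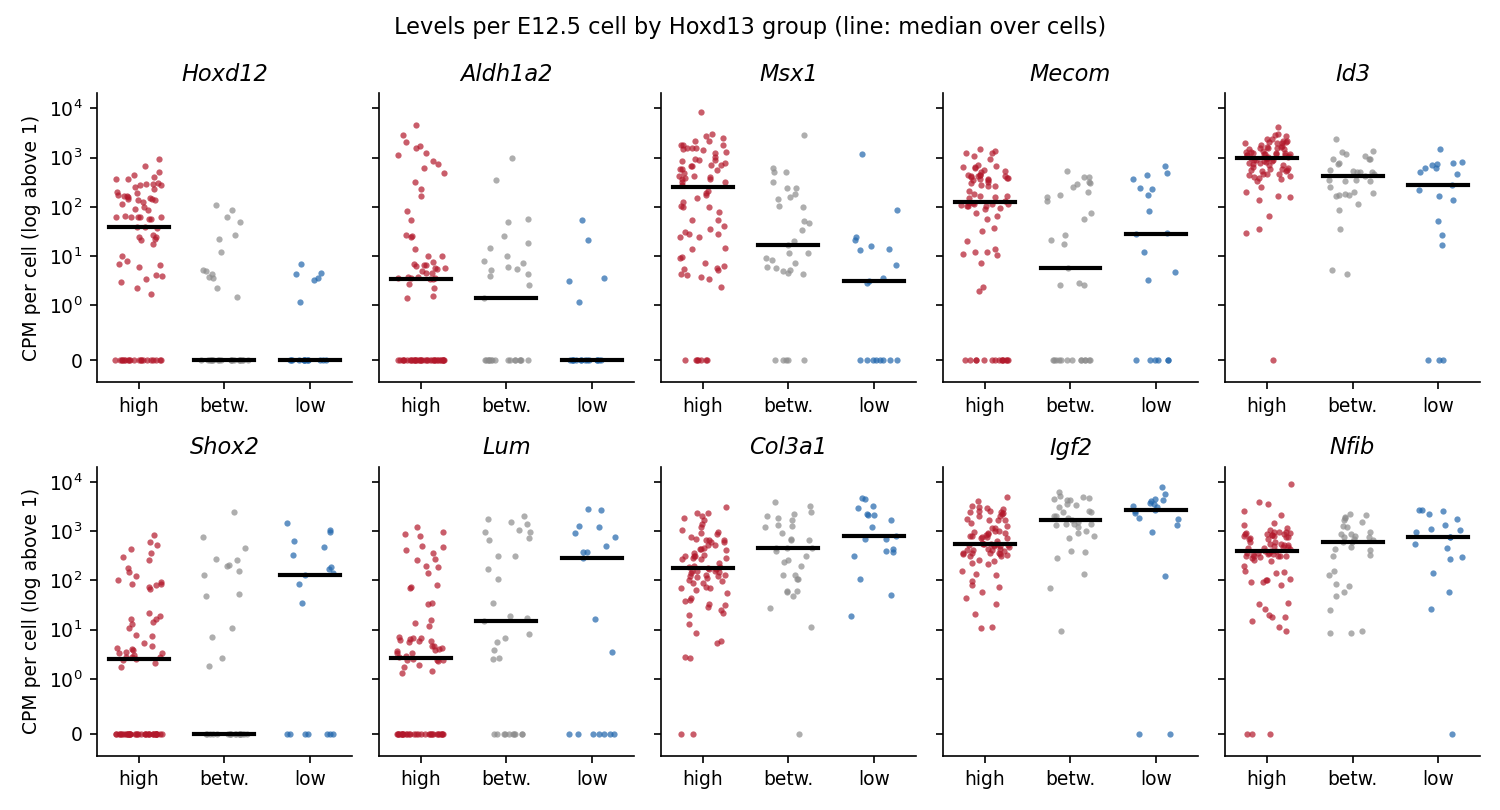
Level per cell (CPM, log scale above 1) of 10 genes in Hoxd13-high cells, cells between the limits and Hoxd13-low cells, with lines at the median. Hoxd12 and Msx1 medians are 39.5 and 248 CPM in Hoxd13-high cells against 0 and 3.12 CPM in Hoxd13-low cells, while Lum, Col3a1 and Igf2 medians are lower in Hoxd13-high cells.

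Of 18 transcription factors of the distal limb compared over all cells, 4 were higher (Tcfap2b, Tbx2, Tcfap2a and Mecom), 0 were lower, and the median log2 ratio was 0.11. Over all genes 11.8% were higher and 1.24% lower. Without the deepest Hoxd13-low cell, the same 4 with Lhx2, Msx1, Msx2 and Dach1 were higher and 1 was lower (Zfhx4), with a median of 0.92, while over all genes 1454 of 10159 (14.3%) were then higher and 141 (1.39%) lower. That cell held over 80% of the Hoxd13-low counts of 412 of the genes compared.

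Msx1, a homeobox gene of the distal bud, showed this most plainly. Its levels were 777, 574.9, 571.7 and 479 CPM in Hoxd13-high cells of pools 4 to 7, against 1.92, 11.9, 12.49 and 527 CPM in Hoxd13-low cells. Pools 4 to 6 were far apart and pool 7 was level, because the deepest Hoxd13-low cell supplied 97.2% of the Hoxd13-low counts. The log2 ratio was 1.30 with that cell, not called, and 5.49 without it.

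Lhx2, a LIM-homeobox gene that acts below the distal ectoderm, had 106 CPM in Hoxd13-high cells and 50.6 CPM in Hoxd13-low cells, with a log2 ratio of 1.0, and 4.16 without the deepest cell, which held 98.1% of the Hoxd13-low counts. All Hoxd13-low counts of Msx2 were in the same cell, and its ratio was 0.22 with the cell and 3.15 without it. Dach1, which encodes a cofactor of transcription, behaved alike, with 0.27 and 2.27. Lhx9 had 134 CPM in both groups and a ratio of 0.00, or 1.71 without the deepest cell, where it still was not called because of pool 6.

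The other genes of the list differed in size and direction. Tcfap2b, which encodes a member of the AP-2 family, had 151 CPM in Hoxd13-high cells and 22.5 CPM in Hoxd13-low cells (log2 ratio 2.51, and 4.56 without pool 7). Tbx2, a T-box gene of the limb margins, had 24.5 and 2.16 CPM (2.04). Tcfap2a had 27.6 and 5.75 CPM (1.60), but with every cell weighted alike its ratio was -0.61. Its highest single-cell value, 746 CPM, was in the Hoxd13-low cell of 2681 counts. Mecom, a zinc finger gene, had 269 and 123 CPM (1.10), and its call was lost without pool 4 (0.98). Sall1 stood at 15 CPM in Hoxd13-high cells and 117 CPM in Hoxd13-low cells, uncalled at -2.60, and at -0.24 without the deepest cell. Hand2, known from the posterior limb, had 118 and 145 CPM and was not called.

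**Figure D3:**
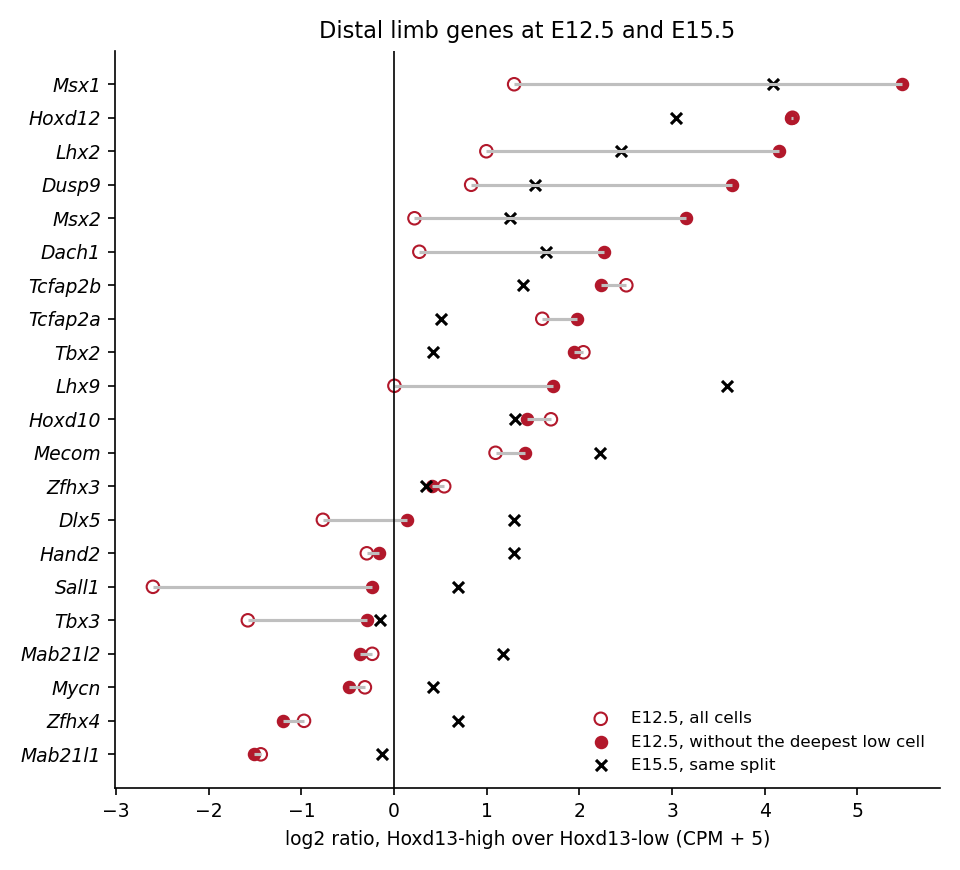
Log2 ratio, Hoxd13-high over Hoxd13-low, of 18 distal limb transcription factors with Hoxd12, Hoxd10 and Dusp9, for all E12.5 cells (open circles), without the deepest Hoxd13-low cell (filled circles) and for E15.5 cells split alike (crosses). Msx1 moves between 1.30 and 5.49 with that cell, while Hoxd12 stays at 4.30 and 4.29.

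The BMP pathway had the largest share of higher genes among the lists of at least 8 genes compared: 9 of 18 were higher and 0 lower. Over all genes 11.8% were higher and 1.24% lower. The list's median was 1.15, or 1.27 without the deepest Hoxd13-low cell, against 0.09 and 0.12 over all genes. With 20 CPM in place of 5 CPM added to each level, 5 of the 18 were higher. The sum over the list had a median of 2800.2 CPM over Hoxd13-high cells and 1491 CPM over Hoxd13-low cells, with ranges of 718 to 6619 CPM and 111 to 3993 CPM that overlap. Among ligands, Bmp4 had 104, 90.2, 51.9 and 101 CPM in Hoxd13-high cells of pools 4 to 7, against 0, 5.27, 38.4 and 40.5 CPM in Hoxd13-low cells. Every pool ran the same way, with pool 6 the closest (log2 ratio 0.39, against 1.5 over all). Bmp7 was read less, at 13.7 and 0.958 CPM (1.65).

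Inhibitors of the pathway made up most of the rest. Smad6, an inhibitory Smad, had 38.9 CPM in Hoxd13-high cells and 5.75 CPM in Hoxd13-low cells (2.03). Bambi, a receptor decoy, had 66.3 and 13.4 CPM (1.95). Chrdl1, a secreted BMP antagonist, had 13.1 CPM and a single Hoxd13-low count, a ratio of 54.6 (95% interval 9.74 to 2164), and fell to 0.39 on the log2 scale without the highest cell of each group and pool. Smad7 (1.44) and Fst, which encodes follistatin (1.19), were also higher, but Smad7 was at 0.91 without pool 7 and 2.06 without pool 5, and Fst was at 0.90 without pool 6.

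Targets of BMP signals were read in nearly every cell. Id3, whose product inhibits basic helix-loop-helix factors, had 1112, 1196, 910.2 and 1235 CPM in Hoxd13-high cells of pools 4 to 7, against 559.6, 262, 518 and 591.2 CPM in Hoxd13-low cells. The pools did not overlap, although single cells did: lowest, median and highest values were 0, 985 and 4272 CPM against 0, 278 and 1502 CPM. The log2 ratio was 1.14, and 0.97 without pool 5. Id2 had 456 and 203 CPM (1.15, and 0.92 without pool 6), and Id1 had 628.9 and 389 CPM without a call (0.69).

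In the FGF pathway, 3 of 15 genes compared were higher (Spry2, Etv4 and Fgf9) and 0 lower, with a median of 0.12, beside 11.8% of all genes higher. Without the deepest Hoxd13-low cell Spred1 and Dusp9 were higher too, and Kctd12 was lower. All 3 genes called over all cells were at low levels, of which the highest was 13.8 CPM for Fgf9 in Hoxd13-high cells against 3.83 CPM in Hoxd13-low cells. The calls of Etv4 and Fgf9 were lost without pool 5 (0.93 and 0.98), and that of Fgf9 also without pool 6 (0.97). Dusp9, which encodes a phosphatase acting on MAP kinases, had 87.9 and 47.2 CPM, with a log2 ratio of 0.83, or 3.65 without the deepest Hoxd13-low cell. Among 20 Wnt genes compared, 2 were higher, no more than the 11.8% of all genes: Wnt5b, a ligand, at 23.2 CPM against 0.479 CPM (2 counts, a ratio of 48.5 (95% interval 13.4 to 402)), and Dkk3 at 24.1 and 5.51 CPM. The Dkk3 ratio of 1.47 changed to -0.65 when cells were taken without a Prrx1 minimum. Ephb6, Efna4 and Efna1, which encode 1 Eph receptor and a pair of ephrins, were the 3 higher of 15 compared, again beside 11.8% of all genes. The median of that list was -0.35, or -0.14 without the deepest Hoxd13-low cell. Efna4, the most abundant of them, had 63.8 and 18.7 CPM (1.54, and 2.30 without pool 6).

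The Hedgehog and Notch lists held few calls, beside 11.8% of all genes higher and 1.24% lower. Of 8 Hedgehog pathway genes, Gli1, a transcription factor and target of the pathway, was higher (26.8 and 3.59 CPM, log2 ratio 1.89). Boc, a coreceptor, was lower (87.5 and 274 CPM, -1.59), with -2.27 without pool 7, but was not called without the deepest Hoxd13-low cell and was at -0.51 without the highest cells. Hey1, a Notch target, was the only higher one of 6 Notch pathway genes, at 24.7 and 3.11 CPM (1.87).

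Of 23 fibrillar matrix genes compared, 7 were lower in Hoxd13-high cells (Lum, Dcn, Col3a1, Sparc, Col5a2, Col1a1 and Col1a2), where 1.24% of all genes were lower, 0 were higher and 16 were not called, with a median of -0.62, and the same counts without the deepest Hoxd13-low cell (median -0.78). After thinning every cell to 50000 counts 4 were lower, and with Hoxd13-low cells taken as the 13 without a Hoxd13 count 2 were lower. Without the highest cell of each group and pool 0 were lower and 2 higher, a setting that moved the median over all genes to 1.05. The sum over the list had a median of 2842 CPM over Hoxd13-high cells and 6674 CPM over Hoxd13-low cells, with overlapping ranges of 353 to 15063 CPM and 719.8 to 15635 CPM. Col3a1, which encodes the chain of type III collagen, had 439, 565.8, 246 and 497 CPM in Hoxd13-high cells of pools 4 to 7, against 3172, 2447, 748 and 1496 CPM in Hoxd13-low cells. No pool overlapped. Over single cells, the lowest, median and highest values were 0, 177 and 3089 CPM and 19, 812 and 4749.6 CPM, and the log2 ratio was -1.90, or -0.81 without the highest cells.

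Lum and Dcn encode lumican and decorin, small proteoglycans that bind collagen fibrils. Lum had 184, 76.1, 48.4 and 96.4 CPM in Hoxd13-high cells of pools 4 to 7, against 824, 1988, 292 and 304 CPM in Hoxd13-low cells. Each Hoxd13-low pool exceeded each Hoxd13-high pool, most of all in pool 5, and the ratio of -2.63 was -1.70 without pool 5. Dcn had 108 and 534 CPM (-2.25), but -1.41 without pool 4, -3.59 without pool 7 and -0.69 without the highest cells. Sparc, a collagen-binding matrix protein gene, had 184 and 514 CPM (-1.46, and -0.74 without the highest cells). The type I collagen genes stood nearest to the limit: Col1a1 had 158 and 375 CPM (-1.22, and -0.81 without pool 4), and Col1a2 had 885 and 1836 CPM (-1.05, and -0.76 without pool 5).

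The connective tissue list, which shares Lum, Dcn and Col3a1 with the matrix list, had 4 of 25 genes lower and 0 higher (median -0.26), beside 1.24% and 11.8% of all genes. The gene that it does not share was Nfib, a nuclear factor I gene, with 539 and 1318 CPM (-1.28) and ratios of -1.46 to -0.98 within pools, but -0.41 without the highest cells. Col4a2, which encodes a basement membrane collagen, had 58.2 and 234 CPM (-1.92).

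Imprinted genes linked to growth were lower in part: 5 of 18 compared were lower (Dcn, Dlk1, Igf2, Meg3 and H19) and 1 was higher (Zrsr1), with a median of -0.63. Over all genes 1.24% were lower and 11.8% higher. Dcn is counted in the matrix and connective tissue lists too. Thinned to 50000 counts, 3 of the 18 were lower, and against the 13 Hoxd13-low cells without a Hoxd13 count 1 was, and 0 were without the highest cell of each group and pool. In that setting Igf2 was at -0.84, Meg3 at -0.74 and Dlk1 at -0.34, where the median over all genes was 1.05. Igf2, which encodes a fetal growth factor, had 974 CPM in Hoxd13-high cells and 2641 CPM in Hoxd13-low cells (-1.44, but only -0.14 within pool 7). Its lowest, median and highest single-cell values were 10.7, 545 and 4937 CPM against 0, 2725 and 7918 CPM, so the groups overlapped and the medians lay far apart. Meg3, a noncoding RNA expressed from the same cluster as Dlk1, had 926 and 2451 CPM (-1.40), with ratios of -1.76 to -1.08 within pools. Dlk1, which encodes a membrane protein with EGF repeats, had 72 and 263 CPM (-1.80). H19, the noncoding neighbour of Igf2, had 1002 and 2058 CPM (-1.03), and only -0.45 without pool 6. Zrsr1 had 17.3 CPM in Hoxd13-high cells and 0 counts in Hoxd13-low cells, at least 24-fold higher against 3 counts over the group.

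Among 14 proximal limb transcription factors, 1 was lower and 1 higher (median -0.60), beside 1.24% and 11.8% of all genes. Shox2, known from the upper limb segment, had 39.1, 20, 24.5 and 88.1 CPM in Hoxd13-high cells of pools 4 to 7, against 705, 354, 379.5 and 183 CPM in Hoxd13-low cells. Each pool was lower in Hoxd13-high cells, by the least in pool 7, and the log2 ratio was -2.67, or -3.75 without pool 7. Median single-cell levels were 2.49 CPM in Hoxd13-high cells and 130.2 CPM in Hoxd13-low cells. Irx5, an Iroquois gene, was the higher one (23.9 and 3.83 CPM, 1.71). Meis1 had 11 and 69 CPM and Meis2 15 and 48.2 CPM, neither called, because pools 4 and 5 for Meis1 and pool 4 for Meis2 ran opposite. Their ratios of -2.21 and -1.41 shrank to -0.78 without pool 7 for Meis1 and -0.35 without pool 6 for Meis2. Without the highest cells their signs changed (0.26 and 0.78), but the median over all genes was 1.05 in that setting. Pitx1, which specifies the hind limb, had 144 and 349 CPM (-1.25) and was not called because of pool 7, and its partner Tbx4 had 87.8 and 66.1 CPM (0.38).

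**Figure D4:**
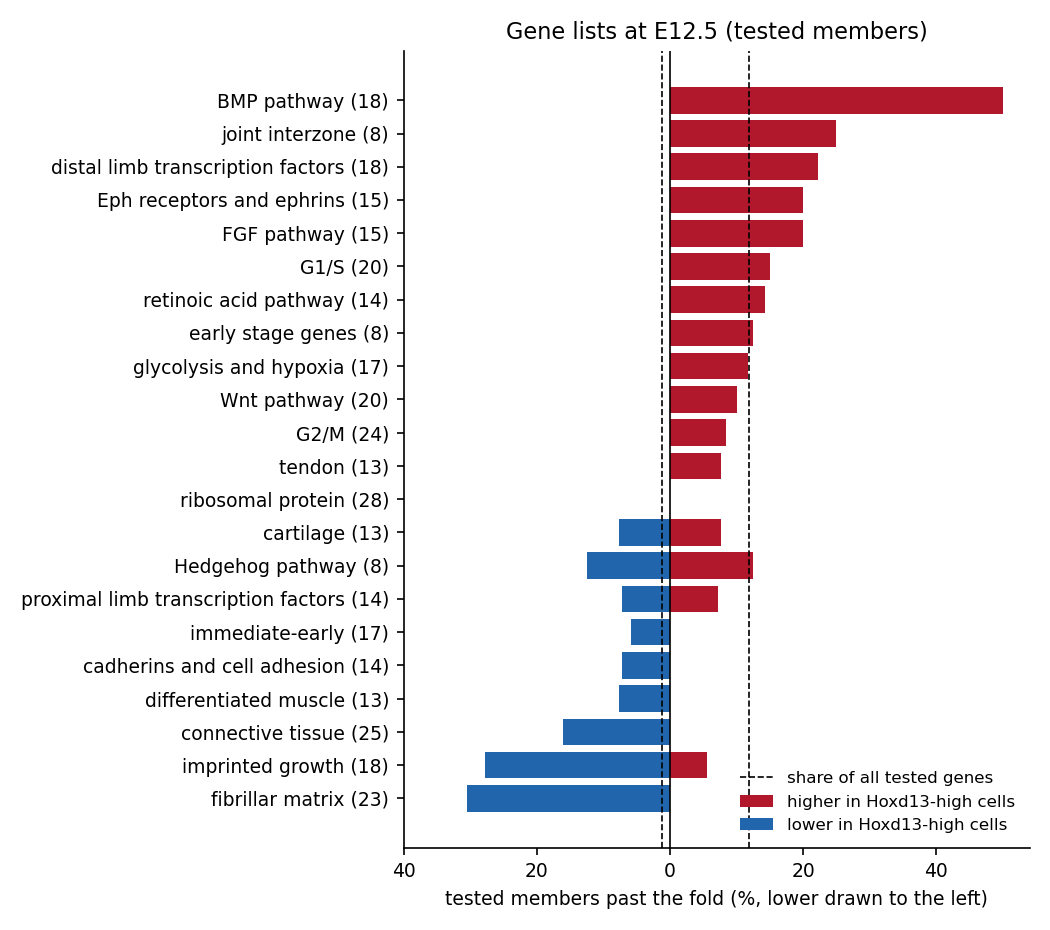
Share of the genes compared in each list (number in brackets) that was higher in Hoxd13-high cells (red, drawn right) or lower (blue, drawn left), with dashed lines at the shares over all genes, 11.8% and 1.24%. The BMP pathway reaches 9 of 18 higher, and the fibrillar matrix 7 of 23 lower.

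Skeletal lists were mixed, and their counts stand beside 11.8% of all genes higher and 1.24% lower. Gdf5, a growth factor gene of the joint interzone, had 46 CPM in Hoxd13-high cells against 0.479 CPM (2 counts) in Hoxd13-low cells, a ratio of 95.9 (95% interval 26.5 to 793), and was 1 of 2 higher genes among 8 of that list. Dcx, the other, was at 9.06 and 1.44 CPM (1.13, and 0.69 without pool 7). The cartilage list held 1 higher gene (Chst11, a chondroitin sulfotransferase gene, 34.9 and 2.16 CPM) and 1 lower gene (Pth1r, a hormone receptor gene, 152 and 325 CPM) among 13. The Pth1r ratio of -1.07 was -0.92 without pool 5 and -0.43 without the deepest Hoxd13-low cell. Its sign changed, to 1.97, without the highest cell of each group and pool, where the median over all genes was 1.05. Sox9, the master regulator of cartilage, had 244 and 233 CPM (0.07) and Col2a1 380.3 and 559.7 CPM (-0.55), with pools on both sides of 0 for each. Scx had 439 and 702 CPM (-0.67) and was likewise split between pools. Tgfb3 was the 1 higher gene of 13 tendon genes (32 and 8.63 CPM, 1.44), with 0.87 without pool 5 and 2.58 without the deepest Hoxd13-low cell.

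Among cell cycle genes, 3 of 20 G1/S genes were higher (Rrm2, Cdc6 and Mcm4, which act in DNA replication) and 0 lower, with a median of 0.44, and 2 of 24 G2/M genes were higher (Ccna2 and Aurka) and 0 lower, with a median of 0.12, where 11.8% of all genes were higher. Without the deepest Hoxd13-low cell 6 G1/S and 3 G2/M genes were higher (Hmmr added), where 14.3% of all genes were. Rrm2 had 151 and 35 CPM (1.97, and 2.97 without the deepest Hoxd13-low cell, which lies in pool 7). Cdc6 had 41.5 and 7.43 CPM (1.91, and 2.52 without pool 5). Mcm4 had 169 and 41.9 CPM (1.89). Neither G2/M call held without pool 5: Ccna2, with 1.05 over all, was at 0.67, and Aurka, with 1.05, at 0.54. Without pool 7 Ccna2 was at 2.02, and without the deepest Hoxd13-low cell Aurka was at 1.90. Of 17 genes of glycolysis and hypoxia, Vegfa, a vessel growth factor gene, was higher at 51.9 and 4.07 CPM (2.65), as was Hk2, a hexokinase gene, at 100.3 and 32.8 CPM (1.48). Of 28 ribosomal protein genes 0 were called, with a median of 0.11.

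The remaining lists gave single calls or none, beside 11.8% of all genes higher and 1.24% lower. Klf6 was the 1 lower of 17 immediate-early genes, at 32 and 191 CPM (-2.40, with -1.50 without pool 4 and -3.11 without pool 7). Alcam, a cell adhesion gene, was the 1 lower of 14 in its list, at 88.2 and 263 CPM (-1.52), and was not called without the deepest Hoxd13-low cell. Lin28b, an RNA-binding protein gene of early development, was the 1 higher of 8 early stage genes, at 34.2 and 1.2 CPM (2.66, and 1.43 without pool 5). Among 6 heat shock genes, 6 endothelial, 5 pericyte and smooth muscle, 4 muscle progenitor and 2 macrophage and mast cell genes compared, 0 were called.

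Some calls concern markers of other cell types. Krt14, a keratin of basal epidermis, had 41.5 CPM in Hoxd13-high cells and 0 counts in Hoxd13-low cells, at least 57.8-fold higher against 3 counts over the group. A single Hoxd13-high cell of pool 4 held 514 of its 1091 counts, the ratio of 3.22 was 2.26 without pool 4, and without a Prrx1 minimum it was -0.24. Epcam, an epithelial adhesion gene, had 23.6 CPM against 1 count. The epithelial list summed to 118 CPM in Hoxd13-high cells and 11.7 CPM in Hoxd13-low cells. Without the called doublets the ratios were 3.11 for Krt14 and 2.37 for Epcam. A limit of 2% of counts in markers of other types left out 0 cells. The highest cell, with macrophage markers, was at 1.12%, so this limit could not bear on these calls. The part of free RNA in these values was not tested. Tnnt1, a troponin gene of muscle, was lower at 24.3 and 96.8 CPM (-1.80), but had -0.77 without pool 6 and -2.52 without pool 7.

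Of the genes chosen by size of ratio alone, 12 were named as higher: Aldh1a2, Get4, Hoxd12, Casp6, Atpaf1, Tarbp2, Lmf2, Shmt1, Inpp5f, Rad51ap1, Bmi1 and Nploc4. Apart from Aldh1a2 and Hoxd12 these are broadly expressed genes. Bmi1, a Polycomb gene, had 64.6 and 1.2 CPM (3.49), and Casp6, which encodes a caspase, had 79.6 CPM against 0.719 CPM (3 counts, a ratio of 111 (95% interval 37.8 to 537)). Get4, which acts in the insertion of tail-anchored membrane proteins, had 139 and 1.92 CPM (4.38). In the cells between the limits 9 of the 12 lay between the levels of both groups. The other three, Get4 with 151 CPM, Bmi1 with 87 CPM and Nploc4 with 77.7 CPM, were higher there than in both groups.

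In the lower direction 9 genes met the naming rule: Tshz3, Slc4a3, Ghr, Tril, Tmem26, Med12l, Col4a2, Foxp2 and Ubxn4. The rule asks that a ratio keep its size without the highest cells, a setting that moved the median over all genes to 1.05. It thus admits higher genes more readily than lower ones, and the 184 and 9 genes are not a like comparison. Tshz3, a zinc finger homeobox gene, had 14.7 CPM (13.3 to 16.3) in Hoxd13-high cells and 160.0 CPM (148 to 173) in Hoxd13-low cells (-3.06), with -3.13 to -2.52 within pools. Its highest single-cell values were 171 and 703 CPM and both medians were 0. Ghr, the growth hormone receptor gene, had 20.7 and 101 CPM (-2.04). Foxp2, a forkhead gene, had 93.7 and 300.4 CPM (-1.63), and Tril, which encodes a Toll-like receptor interactor, had 175 and 714 CPM (-2.00). In the cells between the limits 7 of the 9 lay between the levels of both groups. Slc4a3 was lower there than in both groups, at 3.68 CPM, and Med12l higher, at 114 CPM.

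**Figure D5:**
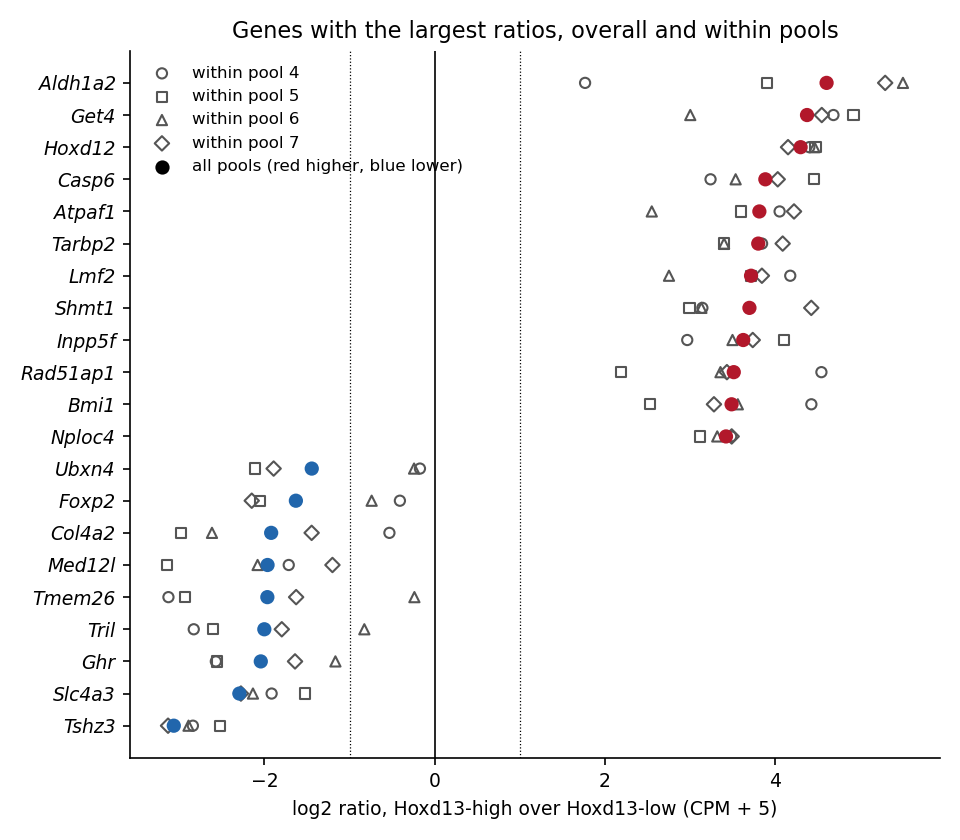
Log2 ratio, Hoxd13-high over Hoxd13-low, of the 12 higher and 9 lower genes with the largest ratios, over all pools (filled) and within pools 4 to 7 (open symbols), with dotted lines at 1 and -1. Hoxd12 keeps to 4.15 to 4.47, while Aldh1a2 spreads between 1.77 and 5.50.

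The same limits were applied to the cells labelled E15.5 hind limb, which the choice of groups did not use: 48 cells were Hoxd13-high and 70 Hoxd13-low. There 137 of 10925 genes (1.25%) were higher and 196 (1.79%) lower. Few calls were shared: 16 of the 1145 E12.5 higher genes compared there were higher at E15.5 and 16 were lower, and of the 127 lower genes 6 were lower and 0 higher. Shares of sign were near those of all genes: the same sign was found for 51.2% of the higher genes, where 51.4% of all genes were above 0, and for 53.5% of the lower genes, where 48.6% of all were below 0. Of the 12 and 9 genes named by size, 9 and 3 had the same sign, and 0 were called in that direction.

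Distal genes were among the higher genes at E15.5. Msx1 had 537 CPM in Hoxd13-high cells and 26.7 CPM in Hoxd13-low cells (4.10), and Lhx9 had 83 and 2.29 CPM (3.59). With Mab21l2 (1.17) they made 3 of 18 distal transcription factors higher, 0 lower, and a median of 1.21, where the median over all genes was 0.02. Hoxd12 had 58.3 and 2.67 CPM (3.05), but was above 0 in 3 of 5 pools and so was not called. Gdf5 was above 0 in 4 of 5 pools, with 89.2 and 7.3 CPM. Dusp9 (1.52) and Id2 (1.24) were higher, and Lum (-1.13), Dlk1 (-1.07) and Meis1 (-1.12) were lower. Col3a1 was not called there, with 2309.6 and 2517 CPM.

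At E10.5, where 14 cells were Hoxd13-high and 69 Hoxd13-low, the labelled hind limb was not matched by its markers: summed Pitx1 was 0 CPM in Hoxd13-high cells and 0 CPM in Hoxd13-low cells, and Tbx5, the forelimb gene, 80.9 and 72.5 CPM. Of the 991 E12.5 higher genes compared there, 23 were higher and 207 lower, and of 113 lower genes 22 were lower and 3 higher. These make 2.32% of the higher and 19.5% of the lower genes, where 2.19% of all genes were higher and 15.8% lower at E10.5. The same sign was found for 41.7% of the higher genes, where 44.3% of all were above 0, and for 61.1% of the lower genes, where 55.7% of all were below 0. Sox9 (-2.44), Col2a1 (-3.20) and Meis1 (-3.65) were lower in the Hoxd13-high cells of that stage, and Hoxd12 had a ratio of 0.07.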

How the data were processed

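Counts per gene and cell were deposited by the authors as whole numbers without normalization. Bowtie2, featureCounts and mm10 are named per the submitters' processing notes. Versions, annotation, strandedness and use of molecular identifiers: not given in the sources used here. PCR can multiply reads, so the counts need not be molecules, and overlapping or antisense genes cannot be told apart. The counts covered 22738 entries for 22092 symbols, and 1120 further samples were not analysed here. The 298 repeated symbols held 0.101% of counts, their identical entries were kept once and differing ones added up. No cells held identical counts, and 0 mitochondrial entries were present.

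CPM are counts over the cell total, or summed counts over the summed total. The ratios, with 5 CPM added, and the call rule were tried on simulated counts. These had the same form of spread between cells for every gene, and known folds only in better-read genes. They therefore do not give the rate of false calls in the real data. Hoxd13 and Prrx1 were left out of the comparison. Up to 12 genes in each direction were named by ratio, among called genes read in 20% of cells or more, at 50 CPM or more in the higher group, whose ratio moved by less than 1.5 times without any pool and kept its size without the highest cells; up to 4 called members of each list from 20 CPM up were added, as was a set of limb genes. Genes at lower levels, uncalled genes outside that set, and Zrsr1, Tnnt1 and C1qb as named here were chosen to complete counts after their values were seen. The groups, the 37 gene lists and this comparison were chosen with earlier results of these data known. In the lists 575 symbols were used, 8 under older symbols, and 2 (Col6a3 and Hbb-bt) were not matched. Scrublet called 11 E12.5 doublets, of which 6 Hoxd13-high and 3 Hoxd13-low cells were kept and left out in an alternative. Thinned shares leave out 2 Hoxd13-high and 3 Hoxd13-low cells under 50000 counts. The coordinate is from GENCODE on GRCm38. Python 3.11.15, numpy 2.4.6, pandas 2.3.3, scipy 1.17.1 and scanpy 1.11.5 were used. Alternatives covered the added CPM, filters on genes and cells, weighting, centring, both Hoxd13 limits, the Prrx1 minimum, depth, doublets and each pool left out. Leaving out the deepest Hoxd13-low cell, the filter of 60 cells and the alternatives at E15.5 and E10.5 were chosen after seeing the data.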

Additional observations from a re-analysis of the deposited data

Results flagged for a closer look

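Some genes called higher in Hoxd13-high cells at E12.5 were lower in Hoxd13-high cells in every pool of another stage. These differences between stages were not tested. Atpaf1 had a log2 ratio of -2.08 at E15.5, against 3.82 at E12.5, and Efna4 had -1.0 at E15.5, against 1.54. At E10.5, where Hoxd13-high cells were the fewer, 15.8% of all genes were lower and the hind limb markers did not match the label, Lmf2 had -2.36, Rdh10 -2.09, Irx5 -1.81, Cdc6 -1.36, Bmi1 -1.34, Lin28b -1.28, Aurka -1.24 and Shmt1 -1.16.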

How the results depend on the processing

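No paired analysis was possible because each stage is 1 sample of combined siblings and both groups are cells of that sample. At E12.5, 11.8% of genes were higher and 1.24% lower in Hoxd13-high cells. Higher genes made up 5.92% with 20 CPM added, 8.92% of genes read in 30 or more cells, 4.67% (133 genes, with 42 or 1.47% lower) of those read in 60 or more cells, and 26.2% against Hoxd13-low cells without a Hoxd13 count. A pool is used for the direction only with at least 3 cells of each group. Pool 7 fell under this in the last setting, so fewer pools had to agree. Leaving out, for each gene, the highest cell of every group and pool gave 40.7% (4148 genes) higher and 0.0098% (1 gene) lower, a setting that takes 1 of only 4 to 6 Hoxd13-low cells per pool. Lower genes made up 2.57% with at least 3000 detected genes and 2.58% with at least 100000 counts per cell. Pool 4 fell under 3 Hoxd13-low cells in both settings, so fewer pools had to agree there too. Without each pool in turn 15.3% to 20.1% (1491 to 1855 genes) were higher and 2.40% to 3.20% (228 to 312) lower, with fewer pools to pass. At E15.5, 1.25% higher became 1.86% to 3.56% and 1.79% lower became 2.51% to 5.09% without each pool, and 1.34% (98 genes, against 196) were lower among genes read in 30 or more cells. At E10.5, 2.19% higher became 5.23% to 6.77% and 15.8% lower became 18.6% to 28.8%, and for genes read in 30 or more cells 2.28% (129 genes, against 201) and 9.76%. Signs changed for Tcfap2a (-0.61, cells weighted alike), for Alcam (0.95), Pth1r (1.97) and Tnnt1 (0.54) without the highest cells, for Pth1r (1.76) against cells without a Hoxd13 count, and for Dkk3 (-0.65) and Krt14 (-0.24) without a Prrx1 minimum. Without the highest cells the median over all genes was 1.05, and the values of Alcam and Tnnt1 stayed below it. The cause of these changes was not tested. Of 65 named called genes, 61 kept their call with the median centred at 0, 51 thinned to 50000 counts, 61 without Scrublet doublets and 40 without the highest cells. Against Hoxd13-low cells without a Hoxd13 count 40 kept it, and without a Prrx1 minimum 51. Of all 127 lower genes, 19 stayed lower in the former setting and 74 in the latter. Of the 1199 higher genes, 923 and 719 stayed higher. Depth limits low genes most: 1 count in the median Hoxd13-low cell already exceeds 5 CPM.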
